A study of Mus musculus with 20 samples.

Results

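The subject is 31 genes of cholesterol synthesis and transport in the mouse cerebellum, out of 29200 genes in the deposited count table. They are listed by symbol: 18 enzymes that build sterols, 7 regulators, 2 genes of uptake and transfer, 2 of efflux and 2 of turnover. Each symbol was matched to 1 Ensembl gene of the table, and 30 of the 31 averaged 50 counts or more across the 20 libraries and were tested. The remaining member, Fdps, averaged 41.1 counts and is given by its values alone.

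The samples come from a study of a knock-in mouse for spinocerebellar ataxia, in which polyA-enriched RNA of cerebella kept in RNAlater was sequenced from stranded libraries. WT/WT mice, whose genotype label reads wild-type ataxin-2 on both alleles, were compared with 304Q/304Q mice, whose label gives 304 CAG repeats on both ataxin-3 alleles. In the study WT stands for the non-expanded form of Atxn3, so the ataxin-2 of that label is at odds with it. Each genotype was sampled at an age of 2 months and of 12 months, with 5 mice and 5 libraries in each of the 4 groups. The mice are of strain C57BL6/N, and the study describes them as males. The knock-in was made with Zn-finger nucleases that placed a repeat of CAG codons interrupted by CAA into the endogenous Atxn3 gene, so that its own promoter drives the expanded allele, and all knock-in mice descend from a single founder line. The summed counts per library ran from 11385380 to 27636687, with a median of 13522932.5. Levels are given below as normalized counts, which are counts scaled to a common library size. The p-values judge a difference between groups against the spread between these mice.

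Some libraries stood apart from the rest. Replicate 1 of the 2-month 304Q/304Q mice was the deepest, at 27636687 counts, while the next deepest held 16606406. Ttr, a transport protein made by the choroid plexus, was above 1000 normalized counts in 6 libraries: 23210 in replicate 3 of the 2-month 304Q/304Q mice, 5319, 28540 and 13570 in replicates 1, 2 and 5 of the 12-month WT/WT mice, and 20310 and 18870 in replicates 1 and 3 of the 12-month 304Q/304Q mice. In the other 14 libraries Ttr was between 14.8 and 268. It was 268, 237 and 246 in replicates 1, 2 and 4 of the 2-month 304Q/304Q mice, and at most 98.7 in the 2-month WT/WT mice. All 5 of the 2-month WT/WT libraries were among the low ones, so choroid plexus RNA was unevenly spread over the ages. Each call among the members is therefore also given from a fit without those 6 libraries, a choice made after the Ttr values were seen, which left 2 older WT/WT, 3 older 304Q/304Q and 4 young 304Q/304Q mice beside the 5 young WT/WT mice.

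Pairs of libraries of 1 group were also compared gene by gene, by a chi-square per degree of freedom, which is higher the further 2 libraries lie apart. Among the 12-month WT/WT mice it was 17.6 to 23.9 between replicate 1 and the others, and 6.13 to 11.3 among those others. The 2-month WT/WT mice fell into replicates 1 to 3 (4.43 to 6.19) and replicates 4 and 5 (4.61), with 12.8 to 21.5 between the 2 sets. The 2-month 304Q/304Q mice gave 5.56 to 9.77 among replicates 1 to 3 and 10 to 19.8 in pairs with replicates 4 or 5. In the 12-month 304Q/304Q mice replicate 5 was at 10.6 to 17.7 from the others, which were at 4.78 to 9.64 from each other.

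The cerebellar label was checked against markers of the main cell types of that tissue. Per length, as RPKM, which scales counts by exon length and library size, averaged over the 20 libraries, the granule cell genes Cbln3 and Gabra6 stood at 446 and 289. The Purkinje cell genes Pcp2 and Itpr1 stood at 195 and 157 RPKM. None of the granule or Purkinje markers was at 0 in any library.

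Brain cells make nearly all of their own cholesterol, because lipoproteins of the blood do not cross the barrier to the brain, and much of it ends up in myelin. The mevalonate enzymes turn acetyl-CoA into isoprenoid units and the sterol enzymes close and trim these into cholesterol, under SREBP transcription factors that are released from the endoplasmic reticulum when its sterol falls. Liver X receptors respond to oxysterols and raise genes of cholesterol efflux, and neurons dispose of cholesterol as an oxysterol that leaves the brain.

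Among the mevalonate enzymes, RPKM averaged over the 20 libraries was 23.1 for Pmvk, phosphomevalonate kinase, and 20.8 for Hmgcs1, which joins acetyl-CoA to acetoacetyl-CoA. Mvd, the decarboxylase that makes isopentenyl diphosphate, stood at 11.3, and Acat2, the cytosolic thiolase that opens the route, at 7.46. Mvk, mevalonate kinase, stood at 7.25 RPKM. The lowest of this role were Idi1, the isomerase of isopentenyl diphosphate, at 2.20, and Fdps, which makes farnesyl diphosphate, at 0.671. Fdps had between 16.1 and 64.8 normalized counts, and both of these came from 12-month 304Q/304Q mice.

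The sterol enzymes were led by Sc5d, a sterol desaturase, at 14.8 RPKM. Ebp, a sterol isomerase, stood at 12.9, Fdft1, squalene synthase, at 11.5, and Cyp51, lanosterol demethylase, at 11.3. Msmo1, which oxidizes methyl groups off the ring, Sqle, squalene epoxidase, Nsdhl, a decarboxylating sterol dehydrogenase, and Dhcr7, the reductase that turns dehydrocholesterol into cholesterol, lay between 5.50 and 6.51 RPKM. Hsd17b7, a keto-sterol reductase, Lss, which closes the rings of lanosterol, and Tm7sf2, a sterol reductase acting after demethylation, were the lowest of this role, from 2.69 to 3.52 RPKM.

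Of the regulators, Nr1h2 and Nr1h3, which encode the liver X receptors beta and alpha, stood at 24.1 and 5.97 RPKM. Srebf2, the SREBP gene tied to sterol synthesis, was at 22.4, and Srebf1, tied more to fatty acids, at 10.6. Scap, which escorts SREBPs to the Golgi, was at 12.6, and Insig1 and Insig2, which hold that escort back, were at 20.9 and 11.4 RPKM. Lrp1, an endocytic receptor for lipoproteins, had the highest RPKM of the 31 members, at 37.97, while Stard4, a soluble sterol carrier, was at 8.98. The efflux transporters Abcg1 and Abca1 were at 13.1 and 4.87. Cyp46a1, the neuronal cholesterol hydroxylase, was at 14.4 RPKM and Soat1, which esterifies cholesterol, at 2.17.

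The first comparison asks how the knock-in allele moves these genes at 2 months, an age the study calls pre-symptomatic. Fitted log2 fold changes of the 30 tested members lay between -0.28 and 0.35. No member passed the quasi-likelihood test of edgeR, adjusted by the Benjamini-Hochberg method across the 12153 genes tested. That is, 0 members had an adjusted p of at most 0.05, and 0.0494% of all genes tested did. At an unadjusted p under 0.05 stood 5 members (Lss, Tm7sf2, Srebf2, Nr1h3 and Abca1), beside 5.55% of all genes tested. The DESeq2 Wald test also called 0 members. In 0 members did the 2-month groups not overlap, beside 1.05% of all genes tested.

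Tm7sf2 had the widest gap between the 2-month groups. Its normalized counts were 116, 140.3, 182, 152 and 161 in the WT/WT mice and 178, 136, 229, 219 and 200 in the 304Q/304Q mice. Although 3 of the knock-in mice were above all WT/WT mice, replicate 2 was among the lowest of both groups, and the groups overlapped. The log2 fold change was 0.35 (SE 0.14), with an adjusted p of 0.823. Among the mevalonate enzymes, Mvk had the largest fitted difference, 0.19 on the log2 scale (SE 0.13, adjusted p = 0.919). Nr1h3 had the lowest fold change of the regulators, -0.28 (SE 0.13, adjusted p = 0.883). The receptor Lrp1 was at -0.11 (SE 0.055, adjusted p = 0.883) and the esterifying enzyme Soat1 at -0.099 (SE 0.082, adjusted p = 0.933). None of these differences passed the test.

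At 12 months, an age the study calls symptomatic, the same comparison found 3 enzymes that differed between the genotypes, in both directions. Mvd, late in the mevalonate steps, rose, while Cyp51 and Ebp, which act on the sterol rings, fell. These were 3 of 30 tested members at an adjusted p of at most 0.05, beside 12.5% of all genes tested. By direction, 1 member was higher, beside 5.23% of all genes, and 2 were lower, beside 7.3%. The share of members called was thus close to that of genes at large.

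Normalized counts of Mvd (ENSMUSG00000006517, chr8:122433601-122443422, minus strand) at 12 months were 244, 286, 307, 261 and 216 in the WT/WT mice and 333, 324, 409.9, 399 and 353 in the 304Q/304Q mice. Every knock-in mouse lay above every WT/WT mouse, with replicates 3 and 4 of the knock-in highest. The level was 38.3% higher, a log2 fold change of 0.47 (SE 0.12), with an adjusted p of 0.0106 in edgeR's test. Without the 6 libraries rich in Ttr the fold change was 0.34 and the adjusted p 0.263 and Mvd was not called. At 2 months the same gene had a fold change of 0.0032 (adjusted p = 1), and the genotype by age interaction, 0.46 (SE 0.17), had an adjusted p of 0.175 and was not called, though it was called with the trend of counts with GC content removed.

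Cyp51 (ENSMUSG00000001467, chr5:4081145-4104746, minus strand) had 701, 600.3, 774, 735 and 665 normalized counts in the 12-month WT/WT mice and 572, 578, 592, 508 and 573 in the 304Q/304Q mice. The highest knock-in mouse, replicate 3, lay just under the lowest WT/WT mouse, replicate 2, and replicate 4 of the knock-in lay below its whole group. Cyp51 fell by 18.8%, with a log2 fold change of -0.30 (SE 0.077, adjusted p = 0.0106 in edgeR's test). It was the only member called at 12 months without the libraries rich in Ttr, at -0.45 (adjusted p = 0.0208). With surrogate variables, which are patterns estimated from the counts themselves, it was not called, at -0.25 (adjusted p = 0.0567) in DESeq2 and -0.26 (adjusted p = 0.0573) in edgeR.

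For Ebp (ENSMUSG00000031168, chrX:8185329-8193512, minus strand) the 12-month values were 475, 403, 503, 417 and 446 in WT/WT mice and 358, 320, 369.9, 390.1 and 353 in 304Q/304Q mice. No knock-in mouse reached the lowest WT/WT mouse, and replicate 2 of the knock-in was lowest. Ebp fell by 20.2% (log2 fold change -0.33, SE 0.083, adjusted p = 0.0105 in edgeR's test). With the Ttr-rich libraries left out it was at -0.38 with an adjusted p of 0.0886.

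The groups did not overlap at 12 months in 5 members, beside 8.94% of all genes tested: Mvd and Hsd17b7 on the higher side, Cyp51, Ebp and Cyp46a1 on the lower. Cyp46a1 counts were 677, 655, 846, 708 and 721 in WT/WT mice and 605, 584, 647, 624 and 625 in 304Q/304Q mice. The knock-in values were tightly packed below the WT/WT ones, whose replicate 3 was highest. The log2 fold change of -0.23 (SE 0.079) had an adjusted p of 0.0609 and was not called. Hsd17b7 counts were 203, 234, 188, 208 and 245 in WT/WT mice and 271, 254, 264, 270.3 and 279.9 in 304Q/304Q mice. The knock-in mice were again close to each other, here above all WT/WT mice. At 0.31 (SE 0.12, adjusted p = 0.0821) this gene was not called either.

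Of the regulators at 12 months, Nr1h3 had the largest fitted difference, -0.35 (SE 0.13, adjusted p = 0.072), and Nr1h2 stood at -0.25 (SE 0.093, adjusted p = 0.0769). Stard4, of uptake and transfer, was at 0.13 (SE 0.077, adjusted p = 0.281). The transporter Abca1 was at 0.24 (SE 0.085, adjusted p = 0.0676), while its fellow transporter Abcg1 was at -0.13 (SE 0.052, adjusted p = 0.106). None of these passed the test in the edgeR fit to all libraries. Leaving out replicate 1 of the 12-month WT/WT mice, the library that lay apart from its group, brought the number of members called from 3 to 6, by adding Abca1, Cyp46a1 and Nr1h2, beside 17.1% of all genes tested. Without the 6 libraries rich in Ttr 1 member was called, beside 5.36% of all genes tested.

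Markers of several cell types differed between the 12-month groups. Of all genes tested, 7.3% were called lower at that age and 5.23% higher. Of the 13 genes of myelinating oligodendrocytes 6 fell (Mobp, Mal, Fa2h, Hapln2, Mbp and Ermn) and none rose, with log2 fold changes from -0.80 for Mobp to -0.35 for Ermn. Their summed normalized counts were 64179, 62814, 72499, 66672 and 70264 in the WT/WT mice and 47218, 56860, 55744, 41770 and 44221 in the 304Q/304Q mice, which did not overlap. At 2 months the sums were 67126, 74341, 66799, 71727 and 68054 in WT/WT mice and 63873, 65670, 58919, 58524 and 57736 in 304Q/304Q mice, again without overlap, and Mal was the only gene of that list called (-0.39, adjusted p = 0.00668). Of all genes tested 0.0494% were called at 2 months. Mbp was the most abundant gene of the myelin list, and none of its genes was at 0 in any library. In bulk tissue, fewer cells of a type and less RNA per cell cannot be told apart, and the part of these markers in the differences of Mvd, Cyp51 and Ebp was not tested.

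Of the 7 Purkinje cell genes 5 fell at 12 months (Pcp2, Pcp4, Ppp1r17, Itpr1 and Calb1), beside 7.3% of all genes tested called lower. The list summed to 92491, 90330, 84051, 81426 and 84530 in WT/WT mice and 71324, 69323, 67131, 74336 and 72419 in 304Q/304Q mice, with Itpr1 the most abundant. At 2 months the sums were 99051, 89719, 90031, 86902 and 85734 and 80568, 88368, 81238, 82150 and 90039, which overlapped. Interneuron genes fell in 2 of 6 cases, Pvalb and Gad1, beside the same 7.3% of all genes. The list, in which Pvalb is the most abundant, summed to 27891, 27153, 30135, 29043 and 28746 and 23276, 23626, 24079, 23390 and 22615 at 12 months. For both lists every 12-month knock-in mouse was below every WT/WT mouse of that age. Taken gene by gene, only Pvalb and Gad1 of the interneuron list were free of overlap, 2 of 6 beside 8.94% of all genes tested. The sum therefore does not speak for the rest of that list.

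Astrocyte and Bergmann glia genes fell in 2 of 10 cases at 12 months, Gdf10 and Aldh1l1. This list, led by Slc1a3, summed to 58460, 56034, 55417, 56770 and 56724 in WT/WT mice and 52137, 54212, 53257, 54021 and 52488 in 304Q/304Q mice, lower in each knock-in mouse. Blood genes fell in 4 of 5 cases (Hbb-bs, Hbb-bt, Hba-a1 and Hba-a2), and their sums, mostly of Hbb-bs, were 1649, 2880, 3502, 2841 and 3153 in WT/WT mice and 1521, 1460, 1451, 1367 and 1589 in 304Q/304Q mice, also without overlap. Of the 5 endothelial genes 1 fell, Ly6c1 (-0.27, adjusted p = 0.0474 in edgeR's test). Of the 5 tested microglial genes C1qa rose (0.33, adjusted p = 0.0443 in the same test). Beside the counts of these lists stand 7.3% of all genes tested called lower and 5.23% called higher. The endothelial list, led by Flt1, summed to 2759, 3020, 2699, 3006 and 2922 in WT/WT mice and 2648, 2831, 2641, 2528 and 2448 in 304Q/304Q mice, which overlapped. Of the 6 granule cell, 2 choroid plexus and 5 oligodendrocyte precursor genes tested, 0 passed edgeR's test at 12 months, with 2, 0 and 2 of them at an unadjusted p under 0.05, beside 27.3% of all genes tested. As with the myelin genes, the part of these lists in the results was not tested.

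**Figure D1:**
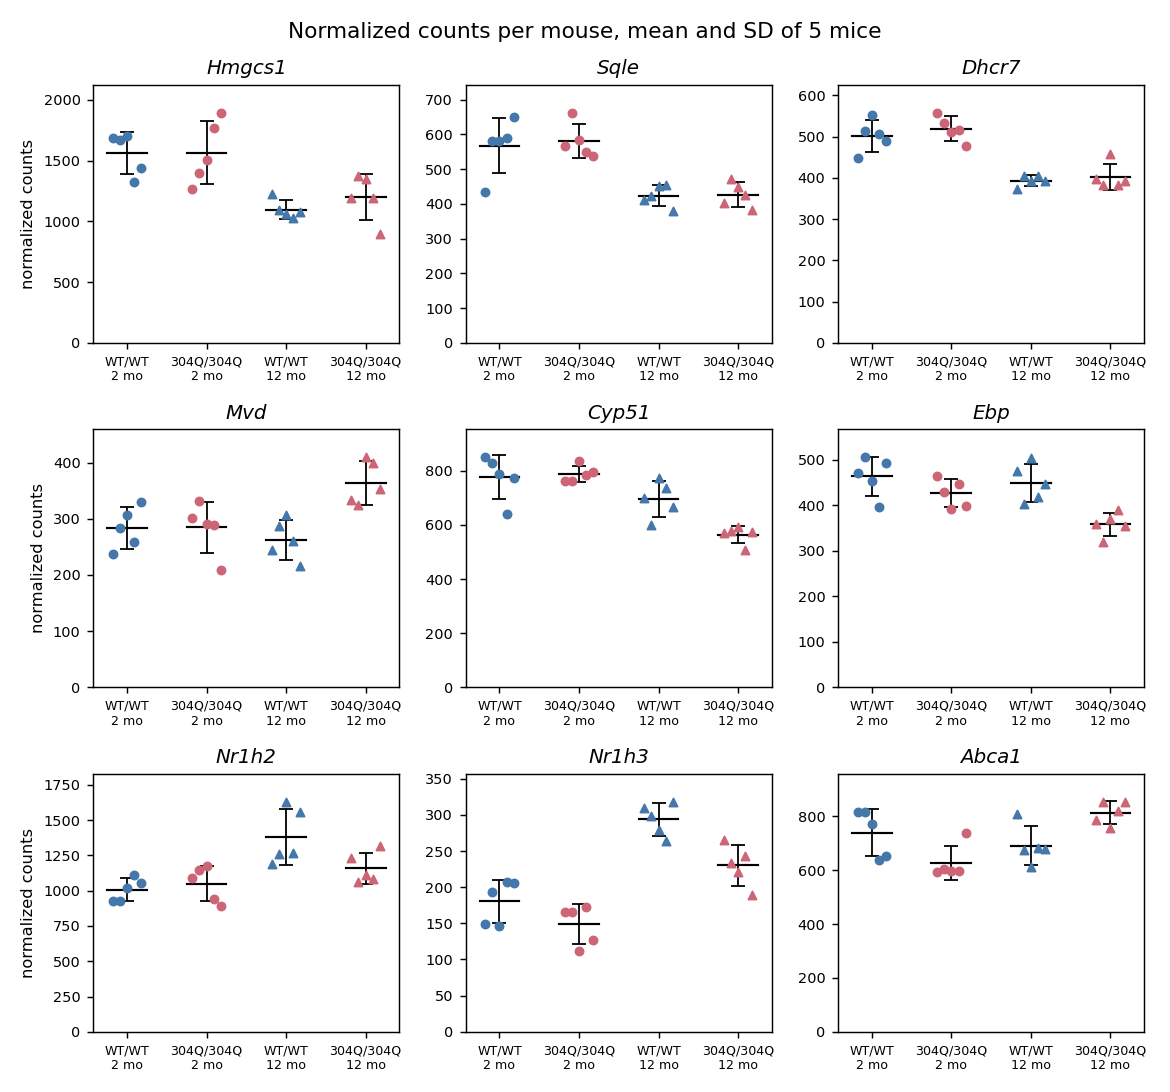
Normalized counts (vertical axis, from 0) of 9 members in each of the 20 mice, by genotype and age (horizontal axis), with circles for 2 months, triangles for 12 months, and bars for the mean and SD of 5 mice. At 12 months, Mvd lies between 324 and 409.9 in 304Q/304Q mice and between 216 and 307 in WT/WT mice, while Dhcr7 is lower at 12 than at 2 months in each genotype.

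The next comparison asks how the genes differ between 12 and 2 months in WT/WT mice. Of the 17 tested enzymes of synthesis 4 were called lower in the older mice. They were Hmgcs1, which feeds the mevalonate steps, and Sqle, Sc5d and Dhcr7, which act on squalene and sterols. Of the 7 regulators 4 were called higher: Srebf1, Srebf2, Nr1h2 and Nr1h3. These were 8 of 30 tested members in edgeR's test, beside 11.5% of all genes tested. The 4 that fell stand beside 5.42% of all genes, and the 4 that rose beside 6.08%. In 6 members the ages did not overlap, beside 6.57% of all genes tested: Hmgcs1, Msmo1 and Dhcr7 were lower and Srebf2, Nr1h2 and Nr1h3 higher. Without the 6 libraries rich in Ttr 5 members were called (Hmgcs1, Dhcr7, Srebf1, Nr1h2 and Nr1h3), beside 9.09% of all genes tested. Leaving out replicate 1 of the 12-month WT/WT mice gave 9 members, with Scap added, and 20.9% of all genes tested. The share of all genes was 6.24%, 6.94% and 7.52% without replicates 1, 2 or 3 of the 2-month WT/WT mice and 5.97% and 6.78% without replicates 3 or 5 of the 12-month ones, where 8, 9, 8, 8 and 8 members were called.

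Hmgcs1 (ENSMUSG00000093930, chr13:119690379-119708260, plus strand) had 1686, 1674, 1707, 1324 and 1438 normalized counts in the 2-month WT/WT mice and 1226, 1094, 1062, 1028 and 1073 in the 12-month ones. The young group split into replicates 1 to 3, near each other, and the lower replicates 4 and 5, yet all were above the highest older mouse, replicate 1. Hmgcs1 fell by 30%, a log2 fold change of -0.51 (SE 0.11), with an adjusted p of 0.00418 in edgeR's test, and by 0.58 on the log2 scale without the Ttr-rich libraries (adjusted p = 0.035).

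Sqle (ENSMUSG00000022351, chr15:59315077-59331192, plus strand) stood at 435, 580, 582, 588 and 650.5 in the 2-month WT/WT mice and at 412, 423, 452, 453 and 378 at 12 months. Replicate 1 of the young mice was far below its group and lay within the range of the older mice, so the ages overlapped. Sqle fell by 25.3% (log2 fold change -0.42, SE 0.091, adjusted p = 0.00488 in edgeR's test). The call was lost without the Ttr-rich libraries, at -0.33 (adjusted p = 0.116).

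Dhcr7 (ENSMUSG00000058454, chr7:143823145-143848410, plus strand) had 448, 513, 553, 507 and 489 normalized counts at 2 months and 373, 405, 392, 404 and 392 at 12 months in WT/WT mice. All older mice were within a narrow band under the young group's lowest mouse, replicate 1. Dhcr7 fell by 21.6% (log2 fold change -0.35, SE 0.070, adjusted p = 0.00285 in edgeR's test), and without the Ttr-rich libraries the fold change was -0.34 (adjusted p = 0.0412).

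The values of Sc5d (ENSMUSG00000032018, chr9:42251595-42264256, minus strand) were 1227, 1237, 1154, 1022 and 1030 at 2 months and 1038, 836, 946, 988 and 906 at 12 months in WT/WT mice. Replicate 1 of the older mice was level with the lower young mice, and the rest were below them. Sc5d fell by 16.8% (log2 fold change -0.27, SE 0.067, adjusted p = 0.0121 in edgeR's test), but had an adjusted p of 0.112 at -0.23 without the Ttr-rich libraries. It was also not called with surrogate variables in edgeR (adjusted p = 0.0762), in a fit to the compared groups alone (adjusted p = 0.0598), or with the trend of counts with GC content removed, at -0.15 (adjusted p = 0.0968).

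Nr1h3 (ENSMUSG00000002108, chr2:91184061-91202834, minus strand), the liver X receptor alpha gene, had 148, 193, 147, 207 and 206 normalized counts in young WT/WT mice and 309.5, 299, 279, 264 and 318 in older ones. The lowest older mouse was well above the highest young mouse. The level was 62.6% higher at 12 months, the highest fold change of the 30 tested members, at 0.70 on the log2 scale (SE 0.13, adjusted p = 0.00136 in edgeR's test). It was 0.58 without the Ttr-rich libraries (adjusted p = 0.0379).

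For Nr1h2 (ENSMUSG00000060601, chr7:44549616-44553951, minus strand), the beta form, the counts were 928, 927, 1017, 1111 and 1055 at 2 months and 1190, 1263, 1632, 1264 and 1557 at 12 months in WT/WT mice. Replicates 3 and 5 of the older mice were the highest, and the ages did not overlap. Nr1h2 rose by 37% (log2 fold change 0.45, SE 0.093, adjusted p = 0.0032 in edgeR's test) and by 0.52 on the log2 scale without the Ttr-rich libraries (adjusted p = 0.0166). It was smaller with surrogate variables, at 0.27 (adjusted p = 0.00907) in DESeq2 and 0.27 (adjusted p = 0.0156) in edgeR, and with the trend with GC content removed, at 0.29 (adjusted p = 0.0193).

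Srebf1 (ENSMUSG00000020538, chr11:60199089-60222581, minus strand) stood at 577, 614, 664, 797 and 814 in young WT/WT mice and 750.3, 1149, 1041, 1072 and 1050 in older ones. Replicate 1 of the older mice was far under its group and within the young range, while the other 4 were above all young mice. Srebf1 rose by 46% (log2 fold change 0.55, SE 0.10, adjusted p = 0.00194 in edgeR's test), and without the Ttr-rich libraries by 0.61 on the log2 scale (adjusted p = 0.00964). With surrogate variables the fold change was smaller, at 0.33 (adjusted p = 0.000204) in DESeq2 and 0.34 (adjusted p = 0.002) in edgeR.

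Srebf2 (ENSMUSG00000022463, chr15:82147181-82205379, plus strand) had 2132, 2177, 2083, 2045 and 1943 normalized counts at 2 months and 2549, 2474, 2400, 2197 and 2597 at 12 months. Replicate 4 of the older WT/WT mice came within a small margin of the highest young mouse, and the groups did not overlap. The rise of 17.7% (log2 fold change 0.24, SE 0.057, adjusted p = 0.0101 in edgeR's test) was not called without the Ttr-rich libraries, at 0.15 (adjusted p = 0.221). It was also lost when the trend with GC content was removed, at 0.11 (adjusted p = 0.372).

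In 304Q/304Q mice the comparison of ages called 4 of the 17 tested enzymes of synthesis lower: Hmgcs1, Sqle, Cyp51 and Dhcr7. Nr1h3 rose, and so did Abca1, the efflux transporter. In edgeR's test these were 6 of 30 tested members, beside 7.26% of all genes tested. The 4 that fell stand beside 4.18% of all genes and the 2 that rose beside 3.08%. The ages did not overlap in 7 members, beside 7.8% of all genes: Sqle, Cyp51, Ebp, Sc5d and Dhcr7 were lower, Nr1h3 and Abca1 higher. Without the 6 Ttr-rich libraries 4 members were called (Sqle, Cyp51, Dhcr7 and Abca1), beside 3.55% of all genes tested, and without the deepest library there were 7, with Msmo1 added, beside 5.51%. The DESeq2 Wald test called 10 members, adding Msmo1, Mvd, Pmvk and Sc5d, beside 8.75% of all genes tested. Mean normalized counts of Mvd were higher in the older mice (284.5 at 2 months and 363.9 at 12 months). Those of Msmo1, Pmvk and Sc5d were lower. With surrogate variables 12 were called, with Nr1h2 and Srebf1 added to those 10, beside 13.7% of all genes tested in DESeq2 and 12.4% in edgeR. The means of Nr1h2 and Srebf1 were higher at 12 months.

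Cyp51 counts were 764, 763, 837, 784 and 797 in the 2-month 304Q/304Q mice, against the 12-month values given above. The young mice lay close together and far above all older ones. Cyp51 fell by 28.4% (log2 fold change -0.48, SE 0.076, adjusted p = 0.000149 in edgeR's test), the lowest fold change of the 30 tested members in that comparison. It was -0.49 without the Ttr-rich libraries (adjusted p = 0.00399). In WT/WT mice the fold change of the same gene was -0.16 (adjusted p = 0.168), and the interaction of -0.32 (SE 0.11) had an adjusted p of 0.131, so the difference with age is not shown to depend on genotype.

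Sqle had 565, 663, 584, 550 and 538 normalized counts in young and 403, 470.5, 449.9, 426 and 383 in older 304Q/304Q mice. All young mice were above all older ones, with replicate 2 highest in each group. Sqle fell by 26.4% (log2 fold change -0.44, SE 0.091, adjusted p = 0.00228 in edgeR's test), and the fold change was -0.44 without the Ttr-rich libraries (adjusted p = 0.0438).

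For Dhcr7 the values were 558, 533, 512, 516 and 478 in young and 398, 383, 459, 384 and 392 in older 304Q/304Q mice. Replicate 3 of the older mice stood well above its group but under the lowest young mouse. Dhcr7 fell by 22.5% (log2 fold change -0.37, SE 0.070, adjusted p = 0.0011 in edgeR's test), and by 0.44 on the log2 scale without the Ttr-rich libraries (adjusted p = 0.00701).

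Hmgcs1 stood at 1266, 1401, 1502, 1770 and 1896 in young and at 1190, 1376, 1348, 1193 and 897 in older 304Q/304Q mice. The young mice were widely spread, and the lowest of them, replicate 1, was under 2 of the older mice. Hmgcs1 fell by 23.3% (log2 fold change -0.38, SE 0.11, adjusted p = 0.0289 in edgeR's test). The call was lost without the Ttr-rich libraries, at -0.46 (adjusted p = 0.1).

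Nr1h3 had 166, 166, 112, 172 and 127 normalized counts in young and 265, 234, 221, 243 and 189 in older 304Q/304Q mice. The ages did not overlap, although replicate 5 of the older mice came near the highest young mouse. Nr1h3 rose by 54.3% (log2 fold change 0.63, SE 0.13, adjusted p = 0.00273 in edgeR's test), and without the Ttr-rich libraries it was not called, at 0.48 (adjusted p = 0.109).

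Abca1 (ENSMUSG00000015243, chr4:53030787-53159895, minus strand) was at 595, 605, 595, 598 and 737 in young and 787, 855, 755, 818 and 854 in older 304Q/304Q mice. In the young group 4 mice were almost level and replicate 5 stood far above them, still under every older mouse. Abca1 rose by 30% (log2 fold change 0.38, SE 0.084, adjusted p = 0.0051 in edgeR's test), and by 0.41 on the log2 scale without the Ttr-rich libraries (adjusted p = 0.0325).

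WT/WT mice gave a different order for Abca1, with 814, 816, 773, 639 and 653 at 2 months and 808, 674, 612, 683 and 677 at 12 months. Replicates 1 to 3 of the young mice were above replicates 4 and 5, the ages overlapped, and the older mice were mostly in the lower part of the young range. The log2 fold change with age was -0.097 (SE 0.085, adjusted p = 0.478). Between genotypes Abca1 was at -0.24 (SE 0.085, adjusted p = 0.74) at 2 months and at 0.24 at 12 months, and neither was called. The genotype by age interaction, which tests the difference between those differences, was 0.48 (SE 0.12) with an adjusted p of 0.0364 in edgeR's test. Abca1 was the 1 member called for the interaction, beside 1.95% of all genes tested. The call was lost without the Ttr-rich libraries, at 0.60 (adjusted p = 0.0791), without the deepest library (adjusted p = 0.0768), and in 15 of the 20 fits that left out 1 library.

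Several members were called with age in 1 genotype alone, and their interactions did not pass. Beside Cyp51 these were Sc5d, with an interaction of 0.057 (adjusted p = 0.798), Srebf1 with -0.25 (adjusted p = 0.4), Srebf2 with -0.17 (adjusted p = 0.305) and Nr1h2 with -0.31 (adjusted p = 0.256). For Ebp the interaction was -0.20 (adjusted p = 0.389) and for Cyp46a1 -0.32 (adjusted p = 0.146). The comparisons share groups of mice: each 12-month group enters a comparison of genotypes and a comparison of ages, and so does each 2-month group, so their values are not independent of each other.

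**Figure D2:**
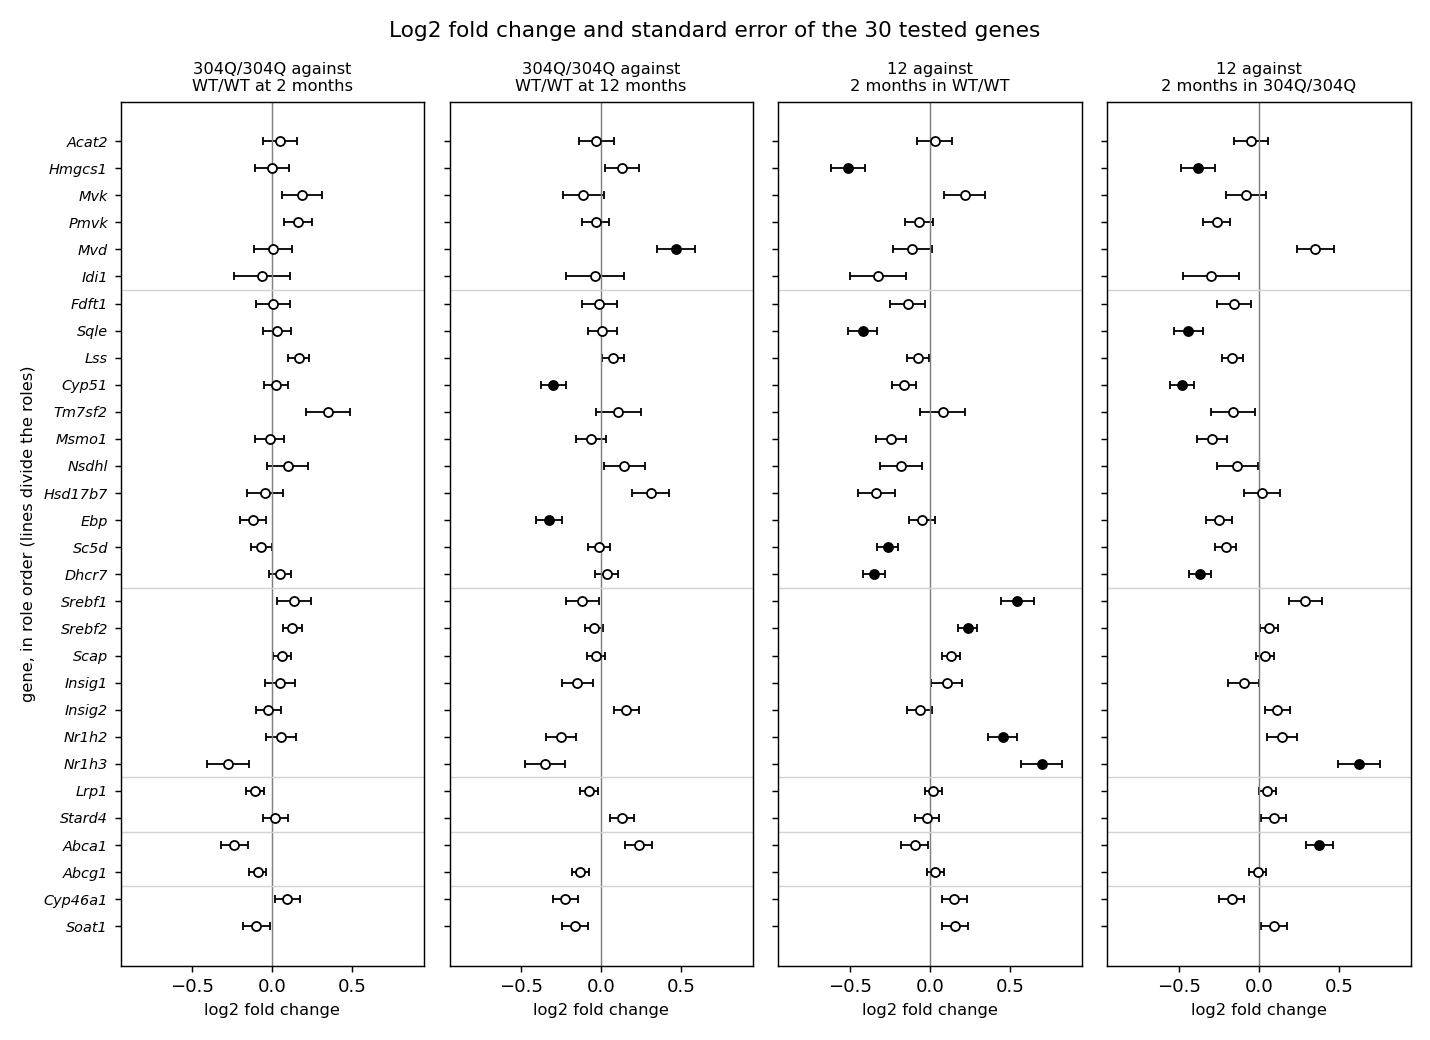
Fitted log2 fold change (horizontal axis) and its SE for the 30 tested members (vertical axis, in order of role) in 4 comparisons, with filled points where the adjusted p is at most 0.05. No point is filled at 2 months, 3 are at 12 months, 8 for age in WT/WT mice and 6 for age in 304Q/304Q mice, and the points run from -0.51 for Hmgcs1 to 0.70 for Nr1h3, each in WT/WT mice.

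Across the 17 tested enzymes of synthesis, the median log2 fold change with age was -0.16 in WT/WT mice and -0.21 in 304Q/304Q mice, where the medians of all genes tested were 0.00175 and -0.00391. By sign of the fitted value, 14 of 17 enzymes were lower with age in WT/WT mice and 15 of 17 in 304Q/304Q mice. The medians between genotypes were 0.022 at 2 months and -0.011 at 12 months, and both changed sign under some alternatives. Without the Ttr-rich libraries the median with age was -0.044 in WT/WT mice and -0.21 in 304Q/304Q mice, and without replicate 1 of the 12-month WT/WT mice it was -0.10 in WT/WT mice. The members were chosen by name, and no test was made of the list as a whole.

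The same median can be read for each mouse, as the middle of the 17 enzymes' log2 ratios to their mean in young WT/WT mice. It was -0.12, 0.045, 0.056, 0.017 and 0.059 in the 2-month WT/WT mice and -0.017, -0.020, 0.054, 0.076 and 0.030 in the 2-month 304Q/304Q mice. At 12 months it was -0.16, -0.31, -0.096, -0.15 and -0.20 in WT/WT mice and -0.13, -0.084, -0.11, -0.23 and -0.28 in 304Q/304Q mice. Apart from replicate 1 of the young WT/WT mice, each young mouse was above each older one, and within an age the genotypes overlapped. That replicate was the lowest of its group for 9 of the 17 enzymes, among them Sqle, Lss and Dhcr7, but the highest for Cyp51. At 12 months the low WT/WT mouse, replicate 2, was lowest for 7 enzymes and highest for 2, and the low 304Q/304Q mouse, replicate 5, lowest for 6 and highest for 2. Replicate 2 of the 12-month 304Q/304Q mice, the highest of its group, led in 7 enzymes (Acat2, Hmgcs1, Idi1, Fdft1, Sqle, Lss and Msmo1) and was the lowest for 5 (Mvd, Tm7sf2, Hsd17b7, Ebp and Dhcr7).

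Cell type markers also moved with age. Ttr, the most abundant choroid plexus gene, and Kl were called higher at 12 months in WT/WT mice. Neither choroid plexus gene was called with age in 304Q/304Q mice or for the genotype by age interaction. That list of 5 genes, 2 of them tested, summed to 62.8, 70.2, 136, 102 and 74.7 in young and 5537, 29419, 143, 138 and 13993 in older WT/WT mice, and to 302, 270.2, 23996, 290.3 and 73.1 in young and 20943, 144, 19510, 119.9 and 100.3 in older 304Q/304Q mice. The sums were high in the 6 libraries named at the outset and low elsewhere, and Folr1 and Aqp1 were at 0 in some of the low libraries. Microglial genes, among them C1qa and Csf1r, rose in 3 of 5 tested cases in each genotype. Of all genes tested 6.08% were called higher with age in WT/WT mice and 3.08% in 304Q/304Q mice. The sums of the 6 microglial genes listed, led by Csf1r, were 1099, 1060, 1092, 1121 and 1191 and 1346, 1391, 1713, 1638 and 1702 in young and older WT/WT mice and 1036, 1023, 983, 1177 and 1110 and 1738, 1841, 1912, 1717 and 1431 in young and older 304Q/304Q mice, with each older mouse above each young one.

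By sign of the fitted value, 11 of the 13 myelin genes were lower with age in WT/WT mice and 12 in 304Q/304Q mice. In WT/WT mice 3 were called lower (Mog, Ugt8a and Mal) and Hapln2 higher, beside 5.42% and 6.08% of all genes tested. In 304Q/304Q mice 7 were called lower, beside 4.18% of all genes tested. The sums of that list, given above, overlapped between the ages in WT/WT mice. In 304Q/304Q mice every older mouse was below every young one. Granule cell genes fell with age in 4 of 6 cases in WT/WT mice and 2 of 6 in 304Q/304Q mice, beside 5.42% and 4.18% of all genes. Their sums, led by Cbln3, were 87178, 84843, 81385, 80618 and 78017 and 70236, 70740, 66467, 69849 and 66283 in young and older WT/WT mice, and 74131, 71644, 69449, 73332 and 80746 and 64886, 67430, 66535, 72183 and 64774 in young and older 304Q/304Q mice. Every older WT/WT mouse was below every young one, while the knock-in ages overlapped. Gpr17, of premyelinating oligodendrocytes, fell in both genotypes, with log2 fold changes of -1.22 in WT/WT mice and -0.70 in 304Q/304Q mice. The sums of its list of 6 genes, led by Vcan, were 1509, 1385, 1398, 1266 and 1292 and 1065, 1204, 1023, 1064 and 1096 in young and older WT/WT mice and 1442, 1360, 1330, 1290 and 1350 and 1103, 1321, 1168, 1103 and 1109 in young and older 304Q/304Q mice.

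Purkinje cell genes fell with age in 5 of 7 cases in 304Q/304Q mice. In WT/WT mice only Pcp2 was called and it rose, while 4 of the 7 were lower by sign of the fitted value. Astrocyte genes fell in 2 of 10 cases in WT/WT mice and in 4 of 10 in 304Q/304Q mice, where Gfap rose (0.48, adjusted p = 0.000875). The astrocyte list summed to 65132, 61710, 62618, 58754 and 57594 in the 2-month WT/WT mice and 60082, 58917, 56783, 56990 and 64144 in the 2-month 304Q/304Q mice, mostly above the older mice. Of the interneuron genes only Pvalb was called with age, and it rose in WT/WT mice and fell in 304Q/304Q mice. By sign of the fitted value 4 of the 6 were lower with age in WT/WT mice and 5 in 304Q/304Q mice. Blood genes rose with age in 2 of 5 cases in WT/WT mice (Hba-a1 and Hba-a2), and of the endothelial genes Slco1a4 fell in 304Q/304Q mice. Beside these counts, 5.42% of all genes tested were called lower with age in WT/WT mice and 6.08% higher. In 304Q/304Q mice the shares were 4.18% and 3.08%. The part of any of the marker lists in the age differences of the sterol genes was not tested.

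Further genes of the pathway, 45 listed and 40 tested, were read in the same fit. For these genes the alternatives, such as leaving out the Ttr-rich libraries or single libraries, were not read. At 2 months edgeR's test called 0, beside 0.0494% of all genes tested, with 2 at an unadjusted p under 0.05, beside 5.55%. At 12 months 5 of the 40 were called, beside 12.5% of all genes tested. Of these 1 was higher, beside 5.23% of all genes, and 4 were lower, beside 7.3%, so the share called was that of genes at large. Mbtps2, the protease that makes the last of the cuts releasing SREBPs, was the one that was higher in 304Q/304Q mice. Its normalized counts were 392, 366, 329, 335 and 303 in WT/WT mice and 482, 423, 439, 495 and 420.4 in 304Q/304Q mice. All knock-in mice were above all WT/WT mice, with a log2 fold change of 0.39 (SE 0.092, adjusted p = 0.00588 in edgeR's test). The interaction of 0.49 was called too (adjusted p = 0.0489 in the same test), 1 of 40 pathway genes beside 1.95% of all genes tested. Exons of Mbtps2 overlap those of Yy2 on the same strand over 2867 bases.

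The other 4 fell at 12 months. Gramd1b, which carries cholesterol from the cell membrane to the endoplasmic reticulum, was at -0.23 (SE 0.055, adjusted p = 0.00586), and Lrp8, a receptor for lipoproteins and reelin, at -0.21 (SE 0.056, adjusted p = 0.0129). Cyp27a1, an oxysterol-forming hydroxylase, was at -0.48 (SE 0.13, adjusted p = 0.0152), and Fads1, a fatty acid desaturase, at -0.18 (SE 0.053, adjusted p = 0.0234). With age in WT/WT mice 4 rose (Mylip, Cyb5r3, Cyp27a1 and Rxra) and 3 fell (Mbtps2, Scd2 and Fads2), 7 of 40 beside 11.5% of all genes tested. In 304Q/304Q mice 2 rose with age (Cyb5r3 and Rxra) and 3 fell (Fads1, Fads2 and Lrp8), 5 of 40 beside 7.26% of all genes tested. Lrp8 fell by 0.35 on the log2 scale (adjusted p = 0.000184).

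Some members share sequence or ground with other genes, which makes their counts less certain. Of all read-length stretches of its transcripts, Acat2 shares 28.7% with Acat3, Fdps 21.3% with Gm43738 and other genes, Idi1 15.8% with Gm13502 and Gm35570, and Tm7sf2 7.89% with Vps51. For Fdft1 the share was 2.27% and for Dhcr7 0.11%, and the other 25 members shared none. Exons of 10 members overlap those of other genes. On the other strand these are Scap with 5830462I19Rik over 985 bases, Fdft1 with Ctsb over 774, Hmgcs1 with Gm48342 over 557, Lss with 4930483K19Rik over 381, Idi1 with Gm48574 over 323 and Cyp51 with Akap9 over 166. On the same strand they are Fdps with Gm43738 over 1124 bases, Tm7sf2 with Vps51 over 532 and Nr1h3 with Gm13783 over 34. Srebf1 overlaps Mir6922 on the same strand and Rai1 on the other, over 175 bases in all. Whether reads were assigned by strand is not stated, so the origin of counts from such overlaps is uncertain.

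RefSeq promoter windows (build GRCm38.p6), of 250 bases before a gene start as RefSeq gives it, were matched by symbol for 26 of the 31 members, all but Fdps, Fdft1, Sqle, Stard4 and Abcg1. These members had 35 windows, since some have more than 1 start, and in 16 of the 26 a window reached into the gene as GENCODE M21 places it, by 49 bases for Cyp51. They were searched on both strands for TCACNCCAC, a form of the sterol regulatory element bound by SREBPs, and for CCAAT, the box bound by a factor that works beside SREBPs. TCACNCCAC was found in 1 of 26 members, Hmgcs1, beside 1.05% of the 32851 windows of the table and 1.29% of 9441 tested genes, counted like the members with a match in any window. CCAAT was found in 20 of 26 members (76.9%), beside 33.8% of all windows and 40.7% of the tested genes, counted likewise. In 15 of the 26 members a CCAAT match lay wholly outside the gene of GENCODE M21, which was not the case for the match of Cyp51. A match is a description of these letters and not a site, and no match says only that the letters are not in that window.

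Shown are the windows of Hmgcs1, which holds the TCACNCCAC match and fell with age, and of Mvd and Ebp, which moved in opposite directions between the genotypes at 12 months. They are chr13:119690101-119690350 on the plus strand for Hmgcs1, chr8:122443423-122443672 on the minus strand for Mvd and chrX:8193513-8193762 on the minus strand for Ebp. Each runs 5′ to 3′ on the strand of its gene, and capitals mark the matches, where a match on the other strand reads as its reverse complement (ATTGG for CCAAT).
Hmgcs1: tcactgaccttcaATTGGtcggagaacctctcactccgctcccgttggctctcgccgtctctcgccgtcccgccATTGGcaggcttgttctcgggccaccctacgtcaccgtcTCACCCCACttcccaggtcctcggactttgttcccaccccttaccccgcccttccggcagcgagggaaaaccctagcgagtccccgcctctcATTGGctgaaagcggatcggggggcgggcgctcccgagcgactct
Mvd: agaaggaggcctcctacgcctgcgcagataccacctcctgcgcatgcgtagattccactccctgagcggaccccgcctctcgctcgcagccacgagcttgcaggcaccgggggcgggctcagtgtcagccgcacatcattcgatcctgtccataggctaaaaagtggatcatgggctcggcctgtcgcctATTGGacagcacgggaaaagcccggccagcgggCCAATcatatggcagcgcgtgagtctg
Ebp: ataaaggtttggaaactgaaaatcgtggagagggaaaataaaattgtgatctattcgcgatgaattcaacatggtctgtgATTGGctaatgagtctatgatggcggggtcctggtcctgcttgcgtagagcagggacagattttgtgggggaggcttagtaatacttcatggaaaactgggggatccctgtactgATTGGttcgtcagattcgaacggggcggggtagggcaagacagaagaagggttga
Hmgcs1 holds 3 CCAAT matches beside the TCACNCCAC match, and Mvd and Ebp hold 2 CCAAT matches each.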

How the data were processed

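Cerebellar RNA of 20 mice was measured as the counts per gene that the authors deposited, made by the authors from reads aligned with STAR 2.4.5b per the labels. The 4 groups of 5 mice follow the labels. Of 29200 gene IDs, 29150 were matched to symbols and GRCm38 positions of GENCODE M21. Genes averaging 50 counts or more (12153, holding 99.3% of counts) were tested with edgeR 4.0.16 in R 4.3.3, by TMM scaling and quasi-likelihood tests with a term per group and Benjamini-Hochberg adjustment over all genes tested. A gene is called at an adjusted p of at most 0.05.

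Alternatives were DESeq2 1.42.0, 3 surrogate variables from sva 3.50.0, other scaling, spread and count filters, a replicate block, removal of a GC trend, each library left out in turn, and, chosen after seeing the data, 6 libraries left out for choroid plexus RNA. Levels per length use the summed exon length of each gene. Replicates were checked for copied libraries (lowest chi-square per degree of freedom between replicates 4.43), and the steps were tested on simulated data. Figures were drawn with matplotlib 3.10.9 in Python 3.11.15.

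The members and gene lists were chosen with earlier results of these data known. Full statistics are given for members called in any comparison and, in each comparison of genotypes, for the member of each role with the largest log2 fold change in size. Other pathway genes and markers are named where called between genotypes, and those named for age were chosen after their values were seen. Markers covered myelinating oligodendrocytes and their precursors, astrocytes, microglia, Purkinje cells, granule cells, interneurons, endothelium, choroid plexus and blood. Hsd17b7 statistics and the non-overlapping members were added after their values were seen. Hsd3b7 was listed but is not analysed here, and 2 listed markers are not reported here or counted in their lists.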

Additional observations from a re-analysis of the deposited data

Results flagged for a closer look

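In 7 of 124 combinations of a member and a group, 1 mouse lay apart from the other 4, by a gap to its nearest neighbour that, as a share of the group's whole range, was above Dixon's 95% limit. Chance alone gives this for about 1 in 20 groups. These 7 involve 6 members. For Idi1 the gap was 0.746 of the range for replicate 4 of the 2-month WT/WT mice, the lowest, and 0.779 for replicate 1 of the 12-month WT/WT mice, the highest. Among 12-month 304Q/304Q mice, Cyp51 was low in replicate 4, with a gap of 0.759, and Dhcr7 high in replicate 3, with 0.802. Srebf1 was low in replicate 1 of the 12-month WT/WT mice (0.729). In replicate 5 of the 2-month 304Q/304Q mice Stard4 was high (0.722) and so was Abca1 (0.930).

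A difference between genotypes that itself differed with age was called by edgeR's test of the interaction for 1 of 30 tested members. It was called for 1 of the 40 further pathway genes tested, and for 1.95% of all genes tested. For Abca1 the interaction was 0.48 on the log2 scale (adjusted p = 0.0364), and without replicate 5 of the 2-month 304Q/304Q mice, the mouse that lay apart, it was 0.54 (adjusted p = 0.00929). It was not called in 15 of the 20 fits that left out 1 library, nor without the 6 Ttr-rich libraries (0.60, adjusted p = 0.0791). For Mbtps2 the interaction was 0.49 (adjusted p = 0.0489 in edgeR's test), and it was not checked with libraries left out.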

How the results depend on the processing

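At 2 months 0 members were called under every alternative, by edgeR and by DESeq2. At 12 months the count was 3 or 4 except without the libraries rich in choroid plexus RNA, where it was 1. With single libraries left out it ran from 3 to 6, the 6 without replicate 1 of the 12-month WT/WT mice. Of all genes tested, 5.36% were called without the choroid plexus libraries, 8.57% to 17.1% with single libraries left out and 4.43% to 14.6% under the rest. For age in WT/WT mice the member count was 6 to 9, 5 without the choroid plexus libraries, and 8 to 10 with single libraries left out. Beside these stood 4.22% to 13.9%, 9.09%, and 5.97% to 20.9% of all genes tested. For age in 304Q/304Q mice the member count was 10 with DESeq2 (beside 8.75% of all genes tested) and 11 with the GC trend removed (8.71%). It was 12 with surrogate variables in DESeq2 (13.7%) and 12 in edgeR (12.4%), and 5 to 9 with single libraries left out (5.51% to 7.97%). For the interaction it was 1 in the main fit, beside 1.95% of all genes tested. It was 2 with the GC trend removed (Abca1 and Mvd), 0 without the choroid plexus libraries, and 0 to 1 with single libraries left out. The share of all genes is not given for those fits, so their counts cannot be set against it. The enzymes' median with age in WT/WT mice was -0.044 without the choroid plexus libraries, and with single libraries left out it ran from -0.20 to -0.10. Of all 12153 genes tested, 6 were called at 2 months and 1 to 52 under the alternatives. At 12 months 1523 were, and 651 without the choroid plexus libraries. With age in WT/WT mice 1398 were, 820 with surrogate variables in edgeR and 739 in a fit to the compared groups alone. With age in 304Q/304Q mice 882 were, 1659 and 1510 with surrogate variables in DESeq2 and edgeR, and 431 without the choroid plexus libraries. The cause was not tested in any of these cases, though leaving out the choroid plexus libraries also leaves 2 to 5 mice a group. No direction was reversed in a member that was called.

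With single libraries left out, Hmgcs1 in 304Q/304Q mice was not called without replicates 4 or 5 of the 2-month group (adjusted p = 0.0848 and 0.0946) or replicates 1, 4 or 5 of the 12-month group (0.0589, 0.0598 and 0.079). Abca1's interaction had adjusted p-values from 0.00709 to 0.0828 over the alternatives. It was called without replicates 4 or 5 of the young WT/WT, 5 of the young 304Q/304Q, 1 of the older WT/WT or 3 of the older 304Q/304Q mice, and not called without any other single library. Abca1 at 12 months was called with DESeq2 (adjusted p = 0.0441), with surrogate variables in DESeq2 (0.0472), with the GC trend removed (0.0461), without replicate 5 of the young 304Q/304Q mice (0.0415) and without replicate 1 of the older WT/WT mice (0.0155). Cyp46a1 was called without replicate 2 of the young WT/WT mice (0.0495) and replicates 1 or 2 of the older WT/WT mice (0.0408 and 0.0426), and Nr1h3 at 12 months in a fit to the compared groups alone (0.0438). Hmgcs1, Dhcr7, Srebf1, Nr1h2 and Nr1h3 with age in WT/WT mice, and Sqle, Cyp51, Dhcr7 and Abca1 with age in 304Q/304Q mice, kept their direction and call under every alternative.

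Replicate numbers do not pair the mice: over 20 pairs of same-numbered libraries r ran from -0.319 to 0.548, was over 0.1 in 4, and was highest with the own number in 2. With the replicate block the counts were 0, 4, 8, 6 and 1, and Cyp46a1 was called at 12 months (adjusted p = 0.0452). Beside these, leaving aside the interaction, stood 0.0494%, 11.9%, 10.7% and 6.81% of all genes tested.

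The limits are those of bulk tissue, 5 male mice a group and 1 founder line. Choroid plexus RNA was high in 6 libraries and low but present in others, unevenly over the ages, and cannot be separated from age in WT/WT mice without leaving 2 older mice. Most differences called were under 0.5 on the log2 scale, and differences of that size or smaller that were not called are not shown to be absent.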
